A study of Callosobruchus maculatus with 24 samples.

Results

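Abdomens of mated females were compared with abdomens of mated males of Callosobruchus maculatus, a seed beetle whose larvae develop inside stored legumes. The comparison rests on 3 mated female and 3 mated male abdomen libraries out of 24 in the series, and it was made over all genes of the gene table that passed the filter on low counts, 14563 of 29812. All beetles were of the strain South India. For reference, the text also uses abdomens of virgin females and virgin males, and the combined head and thorax of mated females and mated males. Heads and thoraces of virgin females and virgin males enter the fits of 24 libraries and the classes set by body part. Each of these groups has 3 libraries. The labels give neither age nor time since mating, and they do not say how many beetles went into a library. No transgene or drug is named for any group.

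The insect abdomen holds the gonads and the reproductive glands together with most of the gut and the fat body. In females the ovary provisions eggs, and the fat body of many insects makes yolk proteins that are taken up by the oocytes. In males the testis makes sperm and the accessory glands make seminal fluid proteins, which are passed to the female at mating. A whole abdomen therefore samples different organs in the sexes. A difference in the number of cells of a type and a difference in RNA per cell cannot be told apart in such bulk samples.

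The files do not pair the gene IDs with gene names, so no marker of an organ or cell type could be looked up, and the tissue label was not checked against markers. Genes are described through their levels, through classes set in other libraries, and through a few IDs chosen by a rule. An ID such as TR61957|c3_g2 joins a component of the authors' assembly and a gene number within it. Total counts were 9355965 to 10171673 in the mated female abdomens and 8481014 to 8988030 in the mated male abdomens. At that depth 3 counts in a library correspond to about 0.271 CPM in the females and 0.373 CPM in the males, where CPM is the usual count of a gene relative to the scaled library total. The libraries of a sex resembled each other closely, with Spearman correlations over genes of 0.978 to 0.980 among females and 0.973 to 0.976 among males. Between the sexes these correlations were 0.648 to 0.666. Libraries of a sex nevertheless differed by more than counting noise (chi-square per degree of freedom 6.37 to 11.5), so none was counted as a repeat of another. The labels do not say whether libraries of a group came from separate cultures, so the p-values speak of library-to-library spread, part of which may be technical.

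Most genes differed between the sexes. Of the 14563 genes tested, 10534 (72.3%) passed the threshold, an adjusted p of 0.05 or less by edgeR's quasi-likelihood test. The calls were nearly even in direction: 5231 genes (35.9%) were higher in mated females and 5303 (36.4%) were higher in mated males, while 4029 did not pass. The median log2 difference over all tested genes, female minus male, was -0.015. In 11103 genes (76.2%) the 3 female and the 3 male libraries did not overlap in CPM, and of the called genes 98.0% did not overlap. Scaling moved this balance. With library size alone the median over all genes was 0.27, so that every difference shifted toward the females, and 59.4% of calls were female-higher against 49.7% with TMM scaling; 9533 genes kept a call in the same direction and 20 were called in the opposite one.

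The sizes of the differences were not alike on the female and male sides. The median log2 difference was 1.19 among female-higher genes and -1.40 among male-higher genes. At least 2-fold differences were seen in 3083 female-higher and 3514 male-higher genes, and at least 4-fold differences in 1312 and 1838. At 16-fold or more there were 460 female-higher and 1222 male-higher genes, and at 64-fold or more 269 and 982. Some of these folds, those of 157 female-higher and 466 male-higher genes, are taken against a sex with no count in any library, and the size of such a fitted fold depends on the prior count. When these genes were set to the fold against 3 counts per library, 351 female-higher and 1075 male-higher genes remained at 16-fold or more, and 137 and 683 at 64-fold or more. The medians then stood at 1.19 and -1.40.

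**Figure D1:**
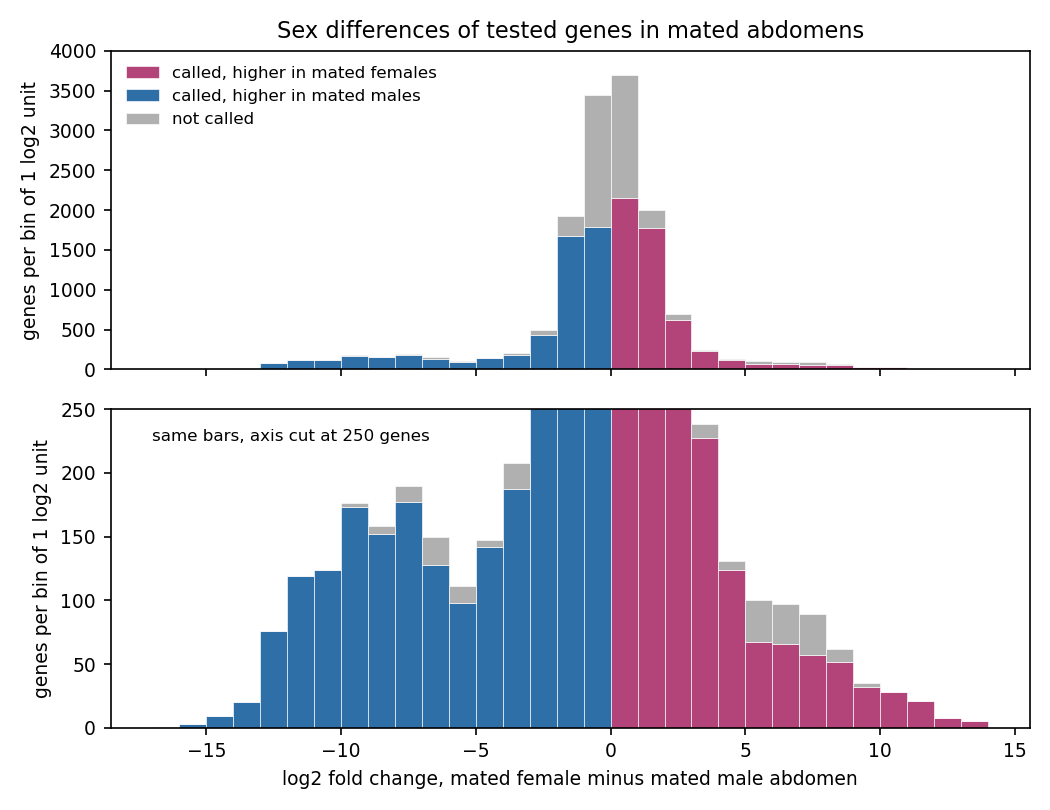
Number of tested genes (y axis, genes per bin of 1 log2 unit) by log2 difference, mated female minus mated male abdomen (x axis), coloured by whether and in which direction the gene passed the threshold; the lower panel shows the same bars with the axis cut at 250 genes. The male tail is the heavier one, with 173 male-higher genes between -10 and -9 against 32 female-higher genes between 9 and 10; the place of genes with no count in a sex depends on the prior count.

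Male-higher genes were the more numerous beyond log2 4 in size. Between log2 4 and 5 there were 124 female-higher and 142 male-higher genes, between 7 and 8 there were 57 and 177, and between 9 and 10 there were 32 and 173. As fitted, male-higher genes dipped to 98 between -6 and -5 and rose again beyond. That dip is not seen when genes with no count in females are set to their bound: the bins then hold 217 male-higher genes between -5 and -4, 175 between -6 and -5, 160 between -8 and -7 and 92 between -10 and -9. The female-higher genes at their bound number 140 between 4 and 5, 74 between 5 and 6, 21 between 7 and 8 and 17 between 9 and 10.

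Genes with large differences held a large share of all counts in the sex where they were high. Female-higher genes of at least 4-fold took 29.5% ± 0.467 of the counts in mated female abdomens and 0.735% ± 0.0188 in mated male abdomens (SD, n = 3 each). Male-higher genes of at least 4-fold took 0.999% ± 0.0201 in mated females and 33.9% ± 1.56 in mated males. At 16-fold or more, the 460 female-higher genes still held 25.2% of female counts and 0.154% of male counts. The 1222 male-higher genes of that size held 0.114% of female counts and 29.6% of male counts.

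The most abundant of the strongly female-higher genes was TR61957|c3_g2. It had 83922, 91578 and 95890 CPM in the mated females, against 975, 900 and 1115 CPM in the mated males. That is 10.2% ± 0.768 of the counts of a female library and 0.0925% ± 0.00876 of those of a male library (SD, n = 3 each). The groups were far apart and the log2 difference was 6.50 (SE 0.209, adjusted p = 2.51e-10). The males were well above the floor of 3 counts, and this gene was also high in the head and thorax of mated females, with 143266, 152129 and 159361 CPM against 460, 780 and 503 CPM in mated males.

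Among female-higher genes with 3 or more counts in all 6 libraries and no overlap, TR61942|c0_g1 had the largest fold. Its level was 4182, 3763 and 3529 CPM in the mated females, against 0.956, 0.372 and 1.03 CPM in the mated males. The log2 difference was 12.21 (SE 0.287, adjusted p = 3.19e-11). Unlike TR61957|c3_g2 it was low outside the abdomen, with 8.81, 2.94 and 3.82 CPM in mated female heads and thoraces and 1.28, 1.79 and 1.47 CPM in male ones.

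On the male side, TR71873|c3_g2 was the most abundant strongly male-higher gene. It had 5.97, 6.51 and 5.72 CPM in the mated females, against 37582, 35124 and 41521 CPM in the mated males, where it held 3.54% ± 0.247 of the counts (SD, n = 3). The log2 difference was -12.62 (SE 0.438, adjusted p = 6.27e-10). Almost none of its counts appear in the deposited transcript table, where its single listed transcript holds 0.00174% of them.

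On the same terms, TR64881|c2_g2 had the largest fold among male-higher genes. Its level was 0.263, 0.267 and 0.375 CPM in the mated females, at the floor of 3 counts, against 2699, 2721 and 3072 CPM in the mated males. The log2 difference was -13.15 (SE 0.271, adjusted p = 1.00e-11).

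**Figure D2:**
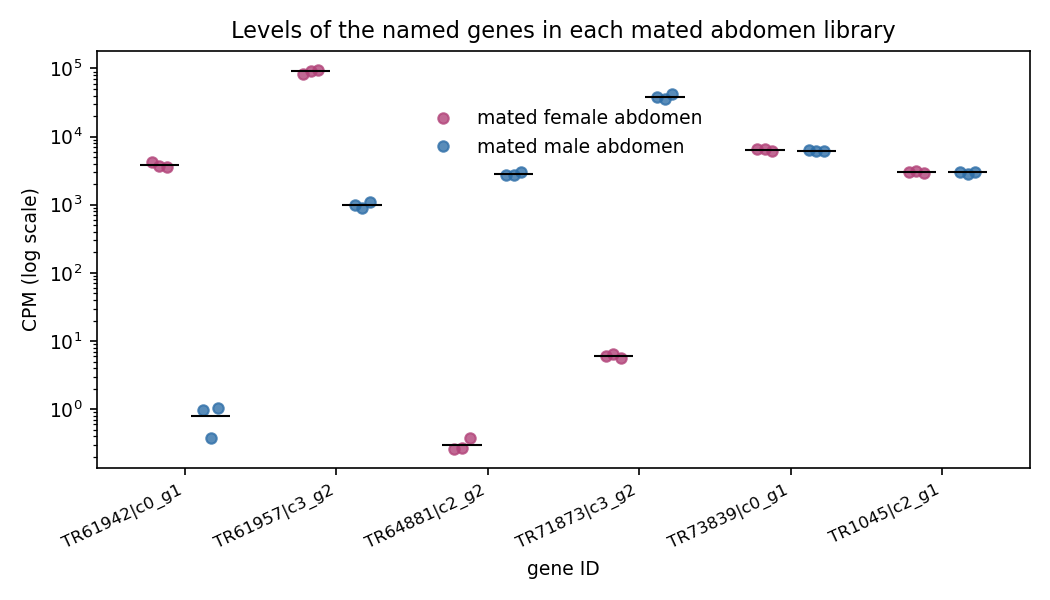
CPM on a log axis (y) of the 6 named genes (x) in each of the 3 mated female and 3 mated male abdomen libraries, with a line at each group mean. The first 4 genes are widely separated, from 90464 against 996 CPM in TR61957|c3_g2 to 0.302 against 2831 CPM in TR64881|c2_g2, while in TR73839|c0_g1 and TR1045|c2_g1 the groups overlap.

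Not every abundant gene differed. TR73839|c0_g1 had 6474, 6610 and 6076 CPM in the mated females and 6360, 6051 and 6048 CPM in the mated males, and these ranges overlap (log2 0.043, SE 0.065, adjusted p = 0.573). TR1045|c2_g1 had 3058, 3152 and 2896 CPM in the mated females and 3065, 2862 and 3056 CPM in the mated males (log2 0.009, SE 0.054, adjusted p = 0.892). With library size alone both passed as female-higher, at log2 0.33 (adjusted p = 0.00043) and 0.30 (adjusted p = 0.000233), which is close to the shift of all genes under that scaling. Among the 4029 genes not called, 1732 lay within 1.2-fold, and 1299 had a level of 10 CPM or more. Of the same 4029 genes, 829 had a fitted difference of over 2-fold, with a median level of 1.196 CPM. The genes at 10 CPM or more and those over 2-fold can overlap. At the other end, 1910 called genes differed by less than 1.5-fold.

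The balance between the sexes changed with the level of expression. Genes were classed by the mean of the female and the male group mean. Of the 6928 genes between 10 and 100 CPM, 47.4% were female-higher and 36.0% male-higher. Of the 1472 genes between 100 and 1000 CPM, 30.6% were female-higher and 60.1% male-higher, and of the 94 genes at 1000 CPM or more, 23.4% and 67.0%. These shares compare with 35.9% and 36.4% over all genes tested. Among the 5072 genes from 1 to 10 CPM they were 25.6% and 33.3%, and among the 997 genes under 1 CPM 17.7% each.

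**Figure D3:**
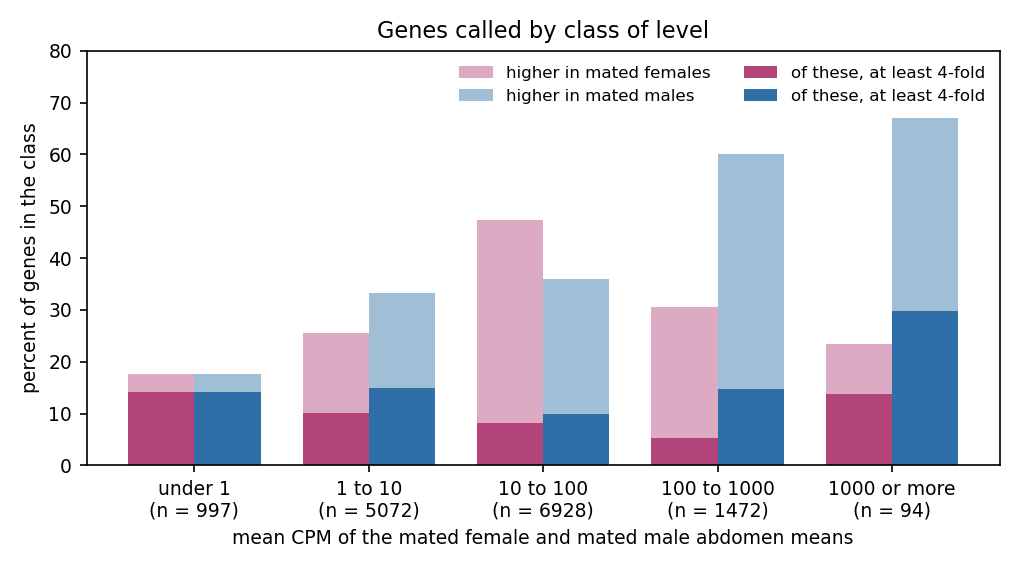
Percent of the tested genes of a class that were called female-higher (left bar) or male-higher (right bar), pale for all calls and dark for calls of at least 4-fold, by class of mean CPM on the x axis with the number of genes. Female-higher genes outnumber male-higher ones only in the class from 10 to 100 CPM, and the male share reaches 67.0% at 1000 CPM or more.

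The excess of male-higher genes at high levels was present under each scaling tried. At 1000 CPM or more there were 22 female-higher and 63 male-higher genes with TMM, 21 and 63 with the size factors of DESeq2, and 27 and 58 with library size alone. Between 100 and 1000 CPM the counts were 451 and 884, 418 and 901, and 576 and 712 under the same scalings. Of the 100 genes with the highest female mean, 54 were female-higher and 32 male-higher, and 34 differed at least 4-fold. Of the 100 with the highest male mean, 6 were female-higher and 86 male-higher, and 46 differed at least 4-fold. Over all genes tested the shares were 35.9% female-higher and 36.4% male-higher. Each list was ranked on the level in a single sex, which by itself favours genes higher in that sex. These counts describe the lists and are no test. The lists shared 40 genes of 100, and the lists of the top 10 shared 3.

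Counts were concentrated in the few most abundant genes of the female abdomen to a greater extent than in the male abdomen. The most abundant gene of a library took 10.2% ± 0.768 of counts in mated females and 3.54% ± 0.247 in mated males (SD, n = 3 each). The 10 most abundant genes took 24.3% ± 0.158 and 15.7% ± 0.651. Below the top the order turned round. It took 330 ± 4.58 genes to reach 50% of the counts in females and 292 ± 15.1 in males, and 4404 ± 24.4 and 3915 ± 72.8 genes to reach 90%. In each of these measures every female library lay on one side of every male library, which gives p = 0.1 in a two-sided exact permutation test, the smallest that 3 against 3 libraries allow.

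**Figure D4:**
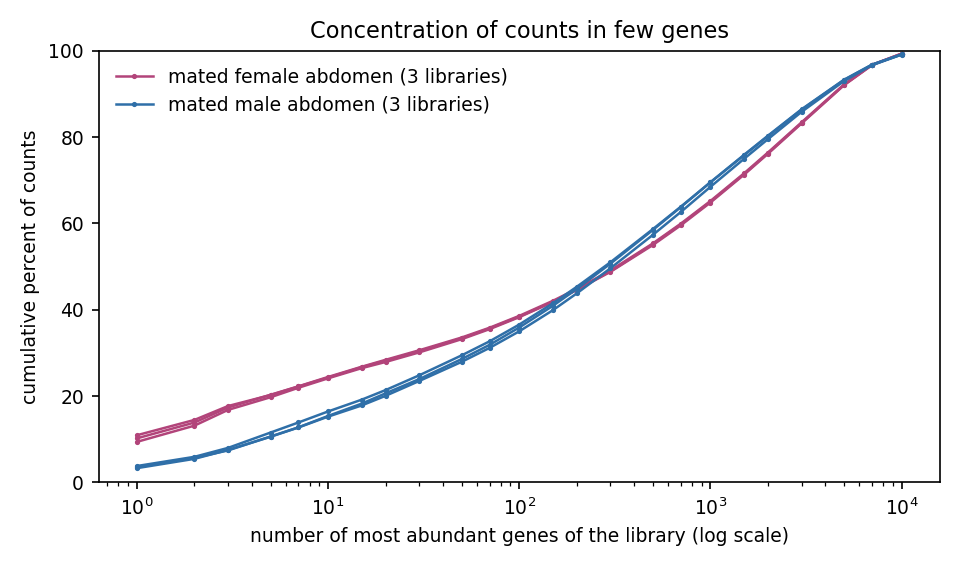
Cumulative percent of a library's counts (y) held by its most abundant genes (x, log scale), with a line for each of the 3 mated female and 3 mated male abdomen libraries. The female lines start higher, at 24.3% against 15.7% for 10 genes, and cross below the male lines before 50% of the counts is reached (330 against 292 genes).

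Every male library held more detected genes than any female library. When every library was brought to the depth of the smallest, 8481014 counts, 17341 ± 31.5 genes had at least 1 count in mated females and 17825 ± 107 in mated males (SD, n = 3 each; exact permutation p = 0.1, the smallest possible). At 1 CPM or more the numbers were 12232 ± 35.9 and 13170 ± 83.2. The median spread between libraries was smaller in females: the median SD of log2 CPM over 13566 genes was 0.126 in mated females and 0.176 in mated males. In 40.1% of these genes the SD was larger in females. The female libraries also had higher total counts, and the difference in spread was not tested.

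A set of genes was read in 1 sex only. With at least 5 CPM in each of the 3 libraries of a sex and no count in the 3 libraries of the other, 43 genes were limited to mated females and 265 to mated males. The female-limited genes had a median of 15.8 CPM (6.49 to 190) and the male-limited genes a median of 24.4 CPM (6.17 to 1215). Summed, they reached 1446 CPM in females and 13889 CPM in males. These genes were chosen for this pattern, so the values describe them and are no test.

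The most abundant female-limited gene had 208, 188 and 175 CPM in mated females and no count in the 3 mated male libraries, which makes it at least 511-fold higher in females against a floor of 3 counts per library. It was also read in virgin females, at 96.3, 95.9 and 153 CPM, and had no count in virgin males. The most abundant male-limited gene had no count in mated females, against 1135, 1226 and 1285 CPM in mated males, at least 4490-fold lower in females. It had no count in virgin females and 1247, 1031 and 1125 CPM in virgin males.

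The genes limited to a sex were also followed in other libraries. Of the 43 female-limited genes, 29 reached 1 CPM in the head and thorax of mated females, and of the 265 male-limited genes 11 reached 1 CPM in the head and thorax of mated males. In abdomens of virgin beetles of the other sex, 20 of the 43 and 161 of the 265 again had no count in any of 3 libraries. An estimated count of 0 does not always mean absence: 2 of the 43 female-limited genes had 50 or more counts in a virgin male library, while none of the 265 male-limited genes had that many in a virgin female library. A count of 0 in a mated library allows up to 3 counts, and this covers counting error only.

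Abundant genes of a sex were also followed at low levels in the other. The 50 male-higher genes of at least 64-fold and 1000 CPM had a median of 0.0296%, 0.0269% and 0.0237% of their male level in the 3 mated female libraries. Single genes varied widely around these medians: in mated female replicate 1 the quartiles were 0.0155% and 0.146%, and the values ran from 0% to 1.58%. In virgin females the corresponding values were 0.0245%, 0.0733% and 0.0224%. The 18 female-higher genes of that kind stood at 0.0382%, 0.0430% and 0.0319% of their female level in the mated male libraries and at 0.0739%, 0.0230% and 0.0320% in virgin males. Virgin female replicate 2 and virgin male replicate 1 thus had higher medians than the other virgin libraries. The 64-fold rule itself limits the levels in the mated libraries, so these values describe the genes chosen. The part of these traces in the counts of limited genes was not tested.

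Male genes without a count in females were counted in mated and in virgin females, with the genes chosen by their level in males alone. Of 8985 genes with at least 5 CPM in both male groups, 260 had no count in any mated and 230 in any virgin female library, 157 of them in neither. Only 4 had no count in virgin females and a count in all 3 mated females, and 8 had the opposite pattern.

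The sex difference of mated abdomens was next set beside that of virgin abdomens, with the mated values fitted on the 6 mated libraries alone so that no library enters both. In that fit 13476 genes were tested, of which 36.6% were female-higher and 38.6% male-higher. Of 3170 tested genes that were called and at least 2-fold female-higher in virgins, 2947 were female-higher in mated abdomens, 4 were male-higher and the rest did not pass, with a median log2 difference of 1.59. Of 3762 tested genes that were at least 2-fold male-higher in virgins, 2 were female-higher and 3518 male-higher, with a median of -1.74. Among 6113 genes in neither class, 1922 were female-higher and 1575 male-higher, with a median of 0.051. Over 13045 genes the log2 differences in mated and virgin abdomens had a Pearson correlation of 0.964, a Spearman correlation of 0.946 and a slope of 0.952; genes are not independent replicates, and these values are descriptions.

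A small share of genes changed their sex difference with mating status. The difference between the sex differences, mated minus virgin, passed in 1206 of 14563 genes (8.28%), of which 761 were more positive and 445 more negative in mated beetles. The direction split depends on the scaling: 63.1% of the calls were positive with TMM, 53.5% with DESeq2 size factors and 25.4% with library size alone, and it was 38.8% when virgin female replicate 1 was left out. Of 6597 genes called at least 2-fold in mated abdomens, 466 (7.06%) had a called change with mating status. The 6597 include the 157 female-higher and 466 male-higher genes with no count in the other mated sex. Where virgins of that other sex had no count either, the change could hardly be estimated or called. Its SE was 3781 for the most abundant female-limited gene and 91.2 for the most abundant male-limited one. The share therefore does not describe such genes. Of 871 genes called in mated but not in virgin abdomens, the change itself was called in 117, of which 62 were female-higher and 55 male-higher in mated beetles. Another 72 genes with a called change were higher in opposite sexes in the mated and virgin abdomens, 43 female-higher and 29 male-higher in the mated ones.

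TR6918|c0_g1 was one of the genes whose direction differed. It had 11.1, 10.8 and 10.2 CPM in mated females, against 24.4, 19.9 and 10.4 CPM in mated males. In virgins it had 11.6, 11.4 and 10.3 CPM in females, against 0.975, 1.09 and 0.944 CPM in males. The 6 female libraries lie close together, the mated sexes overlap, and the virgin males are the lowest libraries. The sex difference was log2 -0.78 in mated abdomens (SE 0.237, adjusted p = 0.0112) and 3.34 in virgin abdomens (adjusted p = 1.42e-06), and the change between them was -4.12 (SE 0.391, adjusted p = 0.00126).

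TR6305|c0_g2 showed the same order at lower levels. It had 2.46, 4.37 and 6.37 CPM in mated females, against 10.9, 10.6 and 9.92 CPM in mated males. In virgins it had 4.69, 2.99 and 5.55 CPM in females, against 1.71, 2.51 and 0.944 CPM in males. The sexes did not overlap in either state, and the change with mating status was log2 -2.49 (SE 0.553, adjusted p = 0.0206).

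TR45430|c1_g5 and TR45058|c0_g1 had the largest positive changes, and these came with wide spread among libraries. That ranking covers called genes with 3 or more counts in all libraries compared and 10 CPM or more in a group. TR45430|c1_g5 had 13.96, 20.5 and 2.16 CPM in mated females, against 3.11, 10.8 and 11.99 CPM in mated males, and the groups overlapped. In virgins it had 0.354, 0.280 and 0.347 CPM in females, against 67.8, 10.03 and 5.78 CPM in males. The change was log2 6.94 (SE 1.72, adjusted p = 0.0348), and it did not pass in 12 of 22 alternative settings (adjusted p up to 0.49). TR45058|c0_g1 had 45.5, 42.6 and 12.9 CPM in mated females, against 58.6, 28.1 and 87.4 CPM in mated males, which overlap. In virgins it had 5.66, 3.08 and 1.996 CPM in females, against 209.4, 96.5 and 60.3 CPM in males. Its change was log2 4.40 (SE 0.944, adjusted p = 0.0195; not passed in 4 of 22 alternatives, up to 0.212).

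Compared with the head and thorax of mated beetles, sex differences of the abdomen were more frequent. In a fit of all 24 libraries and 15558 genes, 10528 genes (67.7%) differed between the sexes in the abdomen, 5069 female-higher and 5459 male-higher. In the head and thorax 5225 (33.6%) did, 2262 female-higher and 2963 male-higher. The sex difference itself differed between the body parts in 7057 genes (45.4%). In 6201 of these, 87.9%, the abdomen had the difference of larger size, against 76.6% of all genes tested. In both body parts 1876 genes were female-higher and 2071 male-higher, and 518 were called in opposite directions, 349 of them female-higher and 169 male-higher in the abdomen. Of the genes whose sex difference differed between parts, 3925 were more positive and 3132 more negative in the abdomen. That split was 55.6% positive with TMM, 43.7% with DESeq2 size factors, 67.2% with library size alone and 29.5% without the 10 most abundant genes, so its direction turned with the scaling.

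**Figure D5:**
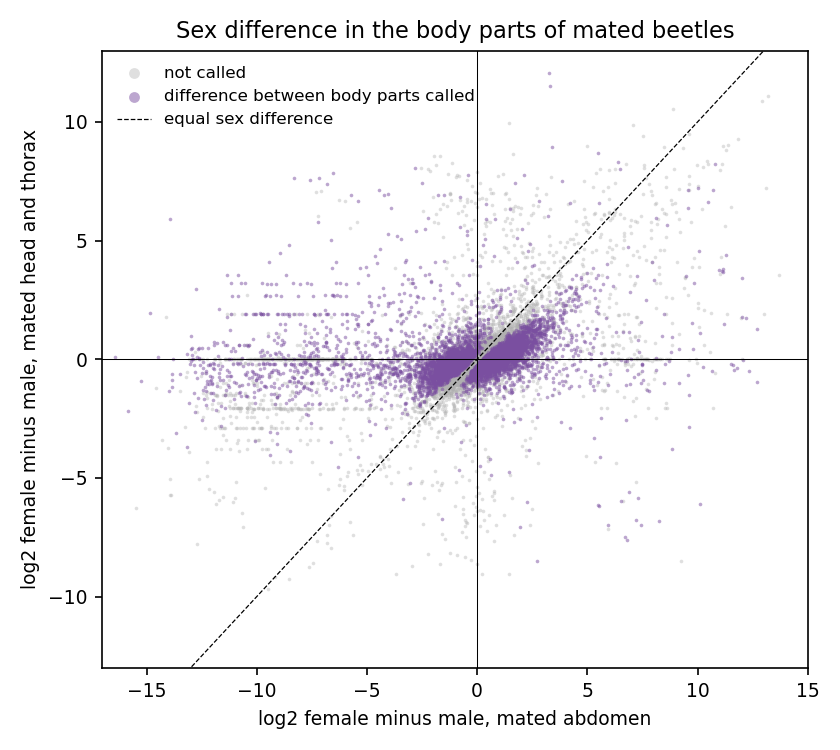
Log2 sex difference, female minus male, of each gene in the mated abdomen (x) and in the mated head and thorax (y), with genes whose sex difference was called different between the parts in purple and equal differences on the dashed line. Many genes lie along the horizontal line at 0, strongly male-higher in the abdomen with a fitted sex difference near 0 in the head and thorax. Many of these were very low there: the 1222 male-higher genes of at least 16-fold had a median of 0.134 CPM in mated male heads and thoraces. For such genes a fitted value near 0 does not show equal levels. Bands of points at large values of y are also genes with few counts in the head and thorax.

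The strongly biased genes of the abdomen were looked up in the head and thorax. Of the 460 female-higher genes of at least 16-fold, 254 (55.2%) reached 1 CPM in the head and thorax of mated females. Of the 1222 male-higher genes of at least 16-fold, 259 (21.2%) reached 1 CPM in the head and thorax of mated males. In the head and thorax 185 of the female set were female-higher, 5 male-higher and 264 not called, with 6 not tested. Of the male set, 4 were female-higher, 95 male-higher and 1123 not called. Over all 15558 genes of that fit, 14.5% were female-higher and 19.0% male-higher in the head and thorax. Over all called genes, 91.9% of female-higher and 77.7% of male-higher genes reached 1 CPM.

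TR25775|c0_g2 and TR44677|c1_g2 showed the largest female excess in the abdomen relative to the head and thorax. That ranking covers called genes with 3 or more counts in all libraries compared and 10 CPM or more in a group. TR25775|c0_g2 had 11514, 11531 and 9389 CPM in mated female abdomens, against 2.03, 4.22 and 2.84 CPM in mated male abdomens. In the head and thorax it had 6.16, 2.37 and 1.97 CPM in females, against 4.11, 3.44 and 5.74 CPM in males, and these overlapped. Its sex difference was larger in the abdomen by log2 12.14 (SE 1.59, adjusted p = 5.49e-06). TR44677|c1_g2, at 14571, 14836 and 12506 CPM in mated female and 1.55, 4.84 and 3.35 CPM in mated male abdomens, had a difference of 12.07 (SE 1.65, adjusted p = 9.34e-06).

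The opposite pattern was found in TR39199|c0_g1 and in TR64881|c2_g2. TR39199|c0_g1 had 0.702, 0.713 and 0.656 CPM in mated female abdomens, against 5665, 5393 and 5352 CPM in mated male abdomens. In the head and thorax it had 1.33, 8.82 and 2.40 CPM in females, against 1.67, 4.81 and 2.67 CPM in males. The difference between the parts was log2 -13.40 (SE 0.911, adjusted p = 2.26e-09). For TR64881|c2_g2 it was -13.39 (SE 0.972, adjusted p = 4.68e-09), with 0.724, 4.63 and 0.655 CPM in female and 0.385, 3.16 and 1.60 CPM in male heads and thoraces. In both genes replicate 2 was the highest head and thorax library in either sex, and the calls passed with any 1 of the 12 mated libraries left out (adjusted p up to 4.89e-08 and 8.56e-07).

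Classes of genes set by body part in virgin beetles alone differed in their sex difference in mated abdomens. Genes enriched at least 8-fold in the abdomen over the head and thorax in virgin females, and under 2-fold in virgin males, numbered 98, of which 89 were tested. Of these, 79 (88.8%) were female-higher and 1 male-higher in the fit of the 6 mated libraries. Their median log2 difference was 7.28, or 6.28 with genes at 0 set to their bound. The reverse class, abdominal in virgin males with under 2-fold in females, was larger, with 672 genes and 647 tested. In it 7 were female-higher and 630 (97.4%) male-higher, with a median of -8.94, or -6.66 at the bound. The shares over all tested genes were 36.6% and 38.6%. The rule favours a sex from the start, since it asks for abdominal enrichment in virgins of that sex and not in the other. A gene could also pass the filter through its level in that sex, so these counts describe the classes and are no test.

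A class abdominal in males and females alike was also followed. Of 88 genes at least 8-fold higher in the abdomen of both virgin sexes, 83 were tested, of which 9 were female-higher and 56 (67.5%) male-higher in mated abdomens, with a median log2 difference of -1.25. With 4-fold in place of 8-fold, 49 of 190 tested genes were female-higher and 109 (57.4%) male-higher. Genes at least 8-fold higher in the head and thorax of both virgin sexes numbered 287, and only 105 of them passed the filter in mated abdomens. A gene could pass through its level in 1 sex, so the calls among these, 2 female-higher and 78 male-higher, give no direction for the class. The classes were set from virgin libraries, which the mated values do not share.

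Some tested genes share an assembly component. Of 2002 assembly components with at least 2 tested genes, holding 5018 genes, 273 held at least 2 genes with a called difference of 4-fold or more. At least 2 were female-higher in 102 components and at least 2 male-higher in 141, and 44 held such genes in both directions. In all, 1065 of these 5018 genes (21.2%) had a called difference of 4-fold or more, against 3150 of all 14563 tested (21.6%). Genes of a component may share sequence, and reads could be split between them, so the values of such genes are uncertain and not independent. Some named genes carry this limit. The component of TR45430|c1_g5 held 5 genes, and those of TR6918|c0_g1 and TR6305|c0_g2 held 2 each. The most abundant female-limited and male-limited genes lay in components of 2 and 4 genes. For the other named genes that number was 1.

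At the level of transcripts, 5892 of 27729 tested (21.2%) were female-higher and 6019 (21.7%) male-higher. Among 5874 genes with at least 2 tested transcripts, all tested transcripts were called one way in 885, some one way and the rest not in 2815, both ways in 352 and none in 1822. The sex difference was unequal among the transcripts of 1159 genes (19.7%; limma's diffSplice, adjusted p at most 0.05). Of the 1132 unequal genes with at least 1 CPM in both sexes, 506 had a different most abundant transcript in females and males. No share over all genes with several tested transcripts is given beside this count. In 122 unequal genes at least 1 transcript was 4-fold female-higher and at least 1 was 4-fold male-higher. As whole genes, 38 of these were female-higher, 58 male-higher and 26 not called. Over all genes tested, 35.9% were female-higher and 36.4% male-higher.

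The gene TR72449|c5_g3 was male-higher as a whole by log2 -3.04, with 507, 482 and 490 CPM in mated females against 3799, 4011 and 4222 CPM in mated males. Its transcript i3 went the other way, with 54.4 ± 7.43 CPM in mated females and 8.08 ± 0.992 CPM in mated males (SD, n = 3 each; log2 2.75, SE 0.331, adjusted p = 7.60e-05). Its transcript i7 stood at 0.261 ± 0.106 CPM in mated females and 1436 ± 75.6 CPM in mated males (log2 -12.35, SE 0.259, adjusted p = 9.84e-10); the female level lies under 3 counts per library, so the size of that fold is imprecise. In females the most abundant transcript was i1, at 340 ± 12.6 CPM against 988 ± 75.2 CPM in males.

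The gene TR45131|c0_g2 was male-higher as a whole by log2 -1.49. Its transcript i4 had 142 ± 21.3 CPM in mated females and 7.26 ± 0.267 CPM in mated males (SD, n = 3 each; log2 4.29, SE 0.808, adjusted p = 0.0016). Its transcript i1 had 180 ± 21.4 CPM in mated females and 880 ± 91.6 CPM in mated males (log2 -2.29, SE 0.179, adjusted p = 3.38e-06). Counts of transcripts of a gene are estimates split over shared sequence, and their error includes that split. The listed transcripts hold 98.9% to 98.97% of gene counts in mated female libraries and 92.8% to 93.4% in mated male libraries, and 75.5% of the male gap lies in 2 genes, one of them TR71873|c3_g2.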

How the data were processed

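RNA was extracted from abdomens and from combined heads and thoraces, and libraries were made with a stranded Illumina kit and sequenced on 2 lanes each, per the labels' protocols. The deposited tables hold expected counts (estimated counts) per gene and per transcript that were not normalised, with 14.1% of the values in the gene table not whole. The submitters' processing notes name Bowtie 0.12.6, Trimmomatic 0.3, cutadapt 1.2.1 and FastQC 0.11.2. For the counting program, the assembly behind the IDs and strand in counting, the sources used here give nothing, so reads of near-identical, overlapping or antisense genes may have been split in ways that cannot be checked.

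Expected counts were rounded to whole numbers. Tests across genes used edgeR 4.0.16 under R 4.3.3 (TMM, filterByExpr by group, robust quasi-likelihood test, Benjamini-Hochberg over all tested genes, threshold 0.05) on the 12 abdomen libraries with 1 mean per group. The comparison of body parts used 24 libraries. Standard errors are the absolute log2 difference divided by the square root of F. CPM use TMM factors computed over 24 libraries on all genes of the table, before the filter, so they are not those of any fit. Unequal transcripts were tested with diffSplice of limma 3.58.1 on voom values. Whole-library values were compared by two-sided exact permutation tests. The steps were tested on simulated data. There 200 features were changed, at most 4-fold and equally in both directions, so the simulation does not cover data in which most genes differ.

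Named genes of the sex difference were, in each direction, the largest fold and, at 16-fold or more, the highest level. Both were taken among called genes with 3 or more counts in all libraries compared and no overlap. The 2 most abundant genes not called within 1.2-fold were also named. For each of the other gene comparisons, the 2 called genes per direction with the largest change were named. They were taken among genes with 10 CPM or more in a group and 3 or more counts in all libraries compared. The rest were the 2 most abundant genes with transcripts 4-fold in both directions and the most abundant sex-limited genes. The comparison, classes and rules were chosen with earlier results of these data known. Alternatives were other scalings (DESeq2 1.42.0 size factors, library size), filters, tests, sets of libraries, a replicate block, and each library left out; level classes under other scalings and the unequal test on well-covered genes were added after seeing the data. No sequences were used here.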

Additional observations from a re-analysis of the deposited data

Results flagged for a closer look

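The genes named for a change of the sex difference between mated and virgin abdomens, or between abdomen and head and thorax, are listed because the difference between the sex differences passed its own test (edgeR's quasi-likelihood test, adjusted p at most 0.05). Between mated and virgin abdomens the log2 change was 6.94 in TR45430|c1_g5, 4.40 in TR45058|c0_g1, -4.12 in TR6918|c0_g1 and -2.49 in TR6305|c0_g2. Between abdomen and head and thorax it was 12.14 in TR25775|c0_g2, 12.07 in TR44677|c1_g2, -13.40 in TR39199|c0_g1 and -13.39 in TR64881|c2_g2. In TR45430|c1_g5 the groups of mated females and mated males overlap, and virgin male replicate 1 stands at 67.8 CPM against 10.03 and 5.78 CPM in the other virgin males. In TR45058|c0_g1 a library of mated female heads and thoraces stands at 169.7 CPM, against 1.21 and 1.81 CPM in the other libraries of that group.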

How the results depend on the processing

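The calls of the sex difference moved little when a mated abdomen library was left out. Female-higher and male-higher genes then numbered 5013 to 5078 and 5060 to 5157 (at least 2-fold 3011 to 3092 and 3438 to 3531). Female-higher and male-higher transcripts numbered 5216 to 5429 and 5328 to 5477, and unequal genes 1017 to 1138. Other settings moved them more. With library size alone 59.4% of 10598 called genes were female-higher, against 49.7% of 10534 with TMM. DESeq2 called 13633 transcripts, against 11911 in the main fit. Leaving out a library, the female excess in the share of the top 10 genes was 8.36 to 8.96 percentage points, that in genes holding 50% of counts 32 to 46.5, and the deficit in genes detected -542 to -438.

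Same-numbered libraries of mated female and mated male abdomens did not deviate together (correlations 0.00936, -0.0182 and -0.0161), so the numbers were not taken to pair libraries. The check covers these groups only. In TR39199|c0_g1 and TR64881|c2_g2 replicate 2 was the highest head and thorax library in both sexes, and a shared replicate effect there was not tested. With a replicate block, 5150 female-higher and 5233 male-higher genes were called (5231 and 5303 without it), 679 and 397 changes with mating status, 3894 and 3058 by body part, 5462 and 5562 transcripts and 1244 unequal genes.

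The counts of changes with mating status moved under several settings. The 761 more positive genes became 302 with library size alone and 341 in the fit of 24 libraries, and the 445 more negative genes became 885 with library size alone and 786 with DESeq2. Leaving out a library gave 317 to 701 and 278 to 501; the lowest were 317 without virgin female replicate 1, and 485 and 278 without mated female replicate 2. The cause was not tested. Of the named genes, TR6305|c0_g2 did not pass in 3 of 22 alternatives (adjusted p up to 0.0524) and TR6918|c0_g1 passed in all 22.

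By body part, 2056 genes were more positive and 4904 more negative without the 10 most abundant genes, under which the median of all genes moved to -0.36 (0.05 with them); leaving out a library gave 3465 to 3776 and 2805 to 3142. Transcripts in the fit of 24 libraries were 37.5% female-higher among those called, against 49.5%.

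Classes and lists moved by their own construction. With 4-fold in place of 2-fold in virgins, 95.6% and 97.7% of the female-biased and male-biased classes were called the same way (93.0% and 93.5%). With 4-fold in place of 8-fold, the classes abdominal in females and in males stood at 94.7% and 95.3%, and the class abdominal in both sexes at 57.4% male-higher (67.5% at 8-fold and 64.6% at 16-fold). Among the tested part of the class of the head and thorax, which gives no direction for the class, 64.5% were male-higher at 16-fold and 74.3% at 8-fold. With 1 CPM in place of 5, 97 genes were female-limited and 408 male-limited, and with up to 1 count in the other sex 421 were male-limited.

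The log2 difference of the uncalled TR73839|c0_g1 turned to -0.0172 with DESeq2 and with its size factors. That of TR1045|c2_g1 turned to -0.0512 with both, -0.0259 in the fit of 6 libraries, -0.00383 in that of 24, and -0.0129 and -0.0123 without mated female or mated male replicate 2 (range with a library left out -0.0129 to 0.037); neither was called in those settings.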
